A study of Mus musculus with 36 samples.

Results

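Myotubes of the C2C12 line, a mouse myoblast line that fuses into multinucleate contractile muscle cells, were transfected with an antisense LNA (locked nucleic acid oligonucleotide, which directs RNase H to cleave its target) against the lncRNA Tug1 and then paced by electrical pulse stimulation (EPS). The comparison described here is that of Tug1 KD myotubes collected 3 h after EPS (EPS 3h, 6 libraries) with Tug1 KD myotubes collected when EPS ended (EPS 0h, 6 libraries). These 12 of the 36 libraries of the series were chosen by their titles alone. All of them carried the Tug1 LNA, added 24 h before EPS, and all were stimulated on day 4 of differentiation for 3 h at 13 V and 66 Hz with 2 ms pulses, in trains of 5 s that alternated with pauses of equal length. Unstimulated Tug1 KD myotubes (Rest, 6 libraries) gave the starting level of each gene, and control myotubes (negative control LNA) at EPS 0h and EPS 3h, 6 libraries each, gave the same 3 h without knockdown. C2C12 is a single immortal line, so the libraries are wells of 1 line and not animals. Triplicate wells were taken in 2 independent experiments, but no source used here says which replicate number belongs to which. The main fit has no term for the experiment and treats the 6 wells of a group as independent. Its p-values therefore measure a spread that mixes differences between wells with differences between the 2 experiments. No Rest culture was collected at the time of EPS 3h, hence 3 h of recovery and 3 h of further culture cannot be told apart.

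Contraction raises cytosolic Ca2+, ATP turnover, heat and mechanical load in a muscle fibre, and the transcriptional response that follows is layered in time. Immediate early genes such as Fos, Egr1 and the NR4A receptors encode transcription factors that need no new protein synthesis to be switched on, and their mRNAs are short lived. Heat shock proteins are chaperones that bind unfolded proteins, and their genes are switched on by the factor HSF1. The integrated stress response acts through ATF4, which raises genes of amino acid supply, Chac1 and feedback regulators such as Trib3. The 3 h window is therefore one in which some transcripts return to their starting level while others are still accumulating.

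Poly-A RNA was sequenced and the deposited values are counts per gene. Library totals ran from 17005079 to 24181167 counts at EPS 0h and from 17734154 to 20651294 at EPS 3h. Levels are given in RPM, the reads of a gene scaled to a common library size with TMM factors, and a log2FC is followed by its standard error (SE). Tug1 itself was at 24–33.3 RPM (median 25.4) in the 6 Rest Tug1 KD libraries against 38.6–58.3 RPM (median 47.8) in Rest control libraries, without overlap. At EPS 0h it was 29.5–61.9 RPM (median 42.2) against 55–80.6 RPM (median 67.7) in control, and at EPS 3h 40–84.6 RPM (median 51.5) against 54.6–107 RPM (median 77), so the ranges overlapped at both times. The mean reduction was largest at Rest (log2FC -0.83 ± 0.17, adjusted p = 0.000915) and remained past the threshold at EPS 0h (-0.57 ± 0.17, adjusted p = 0.0178) and EPS 3h (-0.51 ± 0.17, adjusted p = 0.0414) in edgeR's quasi-likelihood test. Between EPS 0h and EPS 3h the Tug1 level in Tug1 KD myotubes did not pass the test (log2FC 0.33 ± 0.17, adjusted p = 0.213), but did with the replicate number as a block (adjusted p = 0.049). Within groups the libraries of replicates 1 to 3 stood apart from those of replicates 4 to 6 on the first principal component (48.3% of the variance), with EPS 3h replicate 3 between them. The 8 myotube markers summed to 15200 to 18100 RPM at EPS 0h and 15600 to 19800 RPM at EPS 3h, and none of the 8 passed the test. Endothelial markers summed to 4.19 to 5.21 RPM at EPS 0h and 9.4 to 12.8 RPM at EPS 3h, and adipocyte markers to 1.21 to 1.95 RPM and 3.51 to 4.19 RPM, so both sums were higher at EPS 3h without overlap and small beside the myotube sum. None of the 6 adipocyte markers passed the abundance filter, and the part of these cell types in the results below was not tested. Of the endothelial markers, Kdr and Pecam1 passed the test upwards, and Tek went from 2.04–2.97 RPM to 3.05–3.97 RPM. Cdh5 (0.259–1.21 RPM and 0.362–0.896 RPM) and Cldn5 (0.052–0.233 RPM and 0.0548–0.239 RPM) overlapped between EPS 0h and EPS 3h, and Emcn was at or near 0 in all 12 libraries. Macrophage markers summed to 2.3 to 4.13 RPM and 2.35 to 3.41 RPM, fibroblast markers to 101 to 195 RPM and 88.5 to 184 RPM, and osteoblast markers to 60.7 to 87.4 RPM and 53.5 to 97.1 RPM. The 1 macrophage marker tested passed downwards (log2FC -0.70, 7.13% of all genes tested were lower). Of osteoblast markers 1 of 3 tested passed upwards (8.59% of all genes tested), and of fibroblast markers 0 of 4 passed. In bulk RNA, fewer cells of a type and less RNA per cell cannot be told apart.

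Large changes in the 3 h after stimulation were mostly rises. Of 13995 genes tested, 531 were higher at EPS 3h than at EPS 0h with an FDR under 0.01 and a log2FC above 1 (3.79% of genes tested), and 45 were lower by the mirrored rule (0.322%). At an FDR under 0.05 without a fold threshold the directions were nearer to each other, with 1202 genes higher (8.59%) and 998 lower (7.13%). With the replicate number as a block, an assumed pairing described with the processing, 1651 were higher and 1715 lower. The 6 libraries at EPS 3h lay wholly above the 6 at EPS 0h for 630 genes (4.5%) and wholly below for 332 genes (2.37%). Scaling by library size alone shifted the median log2FC by -0.076 and turned the share of higher genes among those past an FDR of 0.05 from 54.6% to 37.1%, whereas for the calls above a log2FC of 1 it went from 92.2% to 88.1%. The 10 most abundant genes took 5.86% to 6.23% of counts at EPS 0h and 7.52% to 9.13% at EPS 3h.

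Genes with large rises were mostly scarce before stimulation. Among the 531, 354 had a mean under 1 RPM at Rest and 220 a mean under 1 RPM at EPS 0h, and 244 reached a mean of 5 RPM at EPS 3h. Of the 45 large falls, 4 had a mean under 1 RPM at Rest and 2 at EPS 0h. The same counts over all genes tested were not made, and how far the rules for a large rise select scarce genes was not tested. A gene could pass the abundance filter through the 12 EPS 3h libraries of both LNAs alone, and 88 of the 531 were under 1 RPM in all 6 EPS 0h libraries, so these could pass the filter only by being higher in other groups. lncRNAs made up 19.6% of the 531, 15.6% of the 45 large falls and 5.89% of all genes tested. The genes tested are those that passed the abundance filter, and the part of this filter in these shares was not tested. As many as 282 of the 531 had already been raised at EPS 0h against Rest by the same thresholds.

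The largest rise was that of Tspear (chr10:77522403-77722855, GRCm39), which encodes a secreted protein with epilepsy-associated repeats. It gave 6 reads over the 6 EPS 0h libraries, with 2 libraries at 0, and 688 reads over the 6 EPS 3h libraries, where it was at 4.3–10 RPM (median 6.15). The ratio of 130 had a counting interval of 59.3 to 355, which covers counting error only, and the fitted log2FC was 6.85 ± 0.47 (adjusted p = 1.32e-11). Efr3b, which anchors phosphatidylinositol 4-kinase at the plasma membrane, was present earlier and rose from 2.08–3.17 RPM (median 2.58) to 28.2–67.8 RPM (median 40.1) after 0.103–0.226 RPM (median 0.17) at Rest. Its log2FC of 4.06 ± 0.25 came on top of a rise of 3.89 ± 0.39 during EPS, and no library of 1 group reached the range of the next. Uncx, a homeobox factor of the somites, went from 0.233–0.604 RPM (median 0.472) to 6.74–16.3 RPM (median 10.5, log2FC 4.67 ± 0.37, adjusted p = 1.69e-11). Tnn (tenascin N, an extracellular matrix protein) went from 0.201–1.26 RPM (median 0.793) to 8.11–29.9 RPM (median 16.1, log2FC 4.64 ± 0.36). Ppp2r2c, a regulatory subunit of protein phosphatase 2A, went from 0.212–0.432 RPM (median 0.405) to 4.34–9.36 RPM (median 6.86, log2FC 4.24 ± 0.37), and Slco2a1, a prostaglandin transporter, from 0.302–1.15 RPM (median 0.62) to 5.16–12.3 RPM (median 10.4, log2FC 3.99 ± 0.33). The other 4 of the 10 largest rises were Ubtfl1 and the lncRNAs Gm17546, 4930500L23Rik and Gm10747, with log2FC of 4.72, 4.83, 4.50 and 4.21. Uncx (chr5:139529249-139533934) lies within 4930500L23Rik (chr5:139496517-139594022) on the same strand, so reads may be shared and their rises may not be separate. In all 10 the ranges of EPS 0h and EPS 3h did not overlap, as the rule for naming them required.

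**Figure D1:**
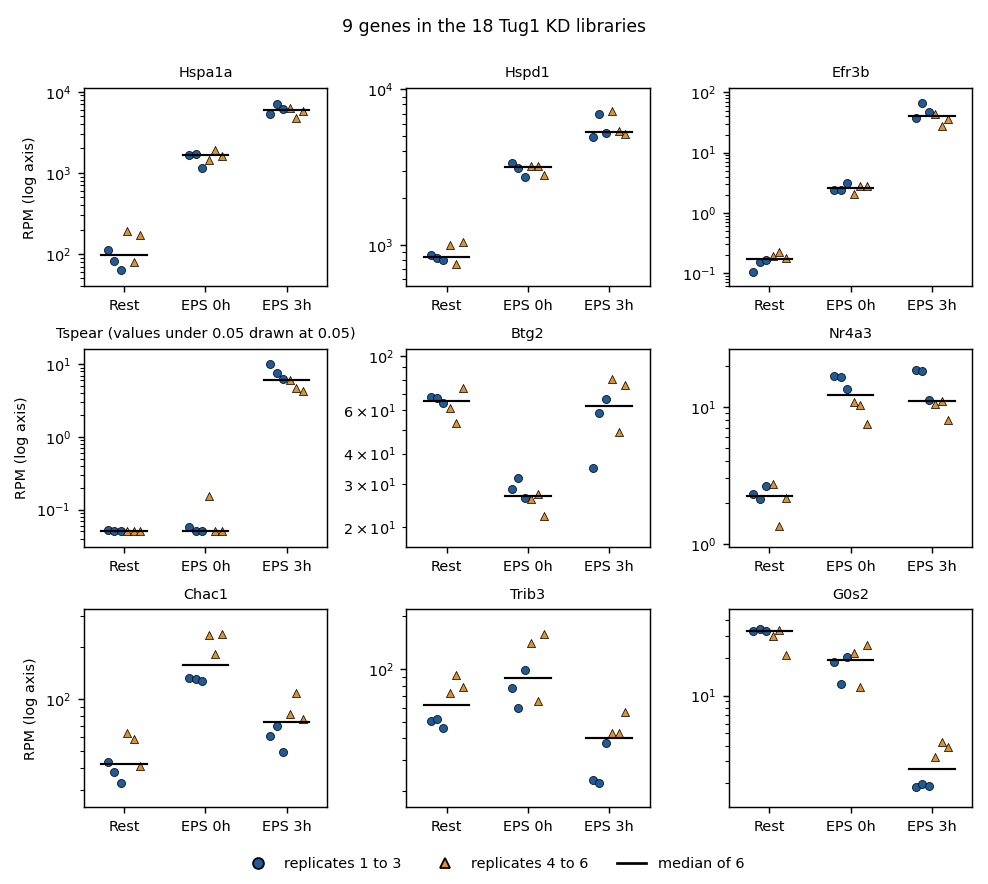
Levels (RPM, log axis) of 9 genes in the 18 Tug1 KD libraries at Rest, EPS 0h and EPS 3h. Circles are replicates 1 to 3, triangles replicates 4 to 6, and the line is the median of 6. Hspa1a, Hspd1 and Efr3b climbed at both steps, Tspear only left the floor at EPS 3h, Btg2 fell and came back, Nr4a3 overlapped between EPS 0h and EPS 3h, and Chac1, Trib3 and G0s2 were lower at EPS 3h than at EPS 0h in every library.

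Large falls were fewer, and 10 with at least 5 RPM are described. G0s2, which inhibits the triglyceride lipase ATGL, showed the largest, from 11.7–25.6 RPM (median 19.4) to 1.86–4.29 RPM (median 2.61). Its log2FC was -2.68 ± 0.25 (adjusted p = 5.82e-10), after a change of -0.73 ± 0.22 during EPS. Klf15, a factor of amino acid and lipid metabolism, had risen during EPS by 1.67 ± 0.31 and then went from 7.87–22.1 RPM (median 9.66) to 4.42–6.21 RPM (median 5.38), where it overlapped its Rest range of 1.58–6.34 RPM (median 4.22, log2FC -1.23 ± 0.31, adjusted p = 0.00416). Adora2b, the adenosine A2B receptor, went from 7.96–12.3 RPM (median 10.2) to 2.85–6.33 RPM (median 4.01, log2FC -1.26 ± 0.16), and Depp1, a target of FOXO factors, from 7.38–12.9 RPM (median 10.4) to 3.56–5.14 RPM (median 4.18, log2FC -1.25 ± 0.20). Ap5s1, a subunit of the AP-5 adaptor complex, fell by 1.80 on the log2 scale, Mmp11, a matrix metalloproteinase, by 1.24, Xrcc3, of homologous recombination, by 1.29, and Fibin by 1.23. Trib3 and Chac1, described with the integrated stress response below, were the other members of the 10.

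The course of each gene was read from EPS 0h against Rest and EPS 3h against EPS 0h, which share the EPS 0h libraries, so that a chance deviation of those libraries enters both with opposite sign. EPS had raised 1141 genes (8.15% of genes tested) and lowered 350 (2.5%) at EPS 0h by an FDR under 0.01 and a log2FC beyond 1. Of the 1141 raised genes, 417 rose further during recovery (FDR under 0.05), 40 declined and 684 did not pass the test in either direction and are called held. Only 112 of the 684 had a 95% interval within 0.5 on the log2 scale, so for the other held genes a change of that size remained compatible with the data. In the 40 that declined the median log2FC was -0.774, and 13 of them were no longer higher than at Rest (FDR under 0.05). With the replicate number as a block, 86 genes declined, 548 held and 511 rose further, and 65 declined when EPS 3h replicate 2 was left out. When EPS 0h against Rest was taken from replicates 1 to 3 and EPS 3h against EPS 0h from replicates 4 to 6, which share no library, 36 of 1486 raised genes declined, 1070 held and 380 rose further, and with the sets exchanged these were 13, 520 and 247 of 780. Of the 350 lowered genes, 32 came back up, 24 of them to a level not below Rest at an FDR under 0.05, 51 fell further and 267 held, 39 of these within 0.5.

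**Figure D2:**
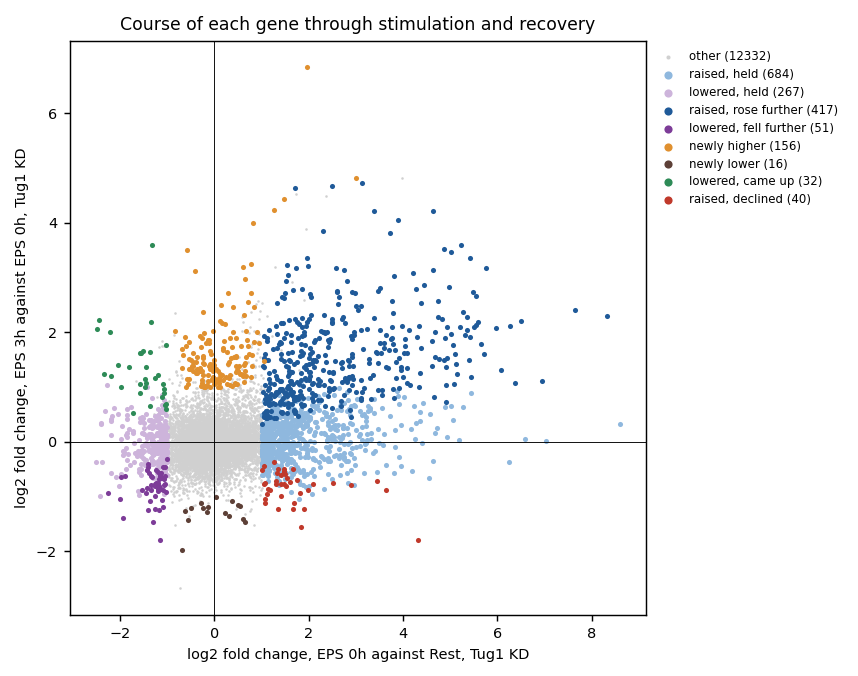
Each point is 1 of 13995 genes in Tug1 KD myotubes, with the log2FC of EPS 0h against Rest on the horizontal axis and of EPS 3h against EPS 0h on the vertical axis. Colours give the class and its count. Raised genes lie mainly on or above the horizontal line, with 417 called higher and 40 called lower during recovery.

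Myf5, Chac1 and Klf15 were the named genes with the largest declines among raised ones, beside the uncharacterised transcript Gm10388 (0.051–0.517 RPM at Rest, 2.08–9.48 RPM at EPS 0h and 0.559–2.63 RPM at EPS 3h). Myf5, a myogenic determination factor, had risen from 8.13–10.6 RPM (median 9.81) to 17.3–34.7 RPM (median 25.2) and was at 6.65–22.1 RPM (median 11.2) at EPS 3h (log2FC -0.99 ± 0.20, adjusted p = 0.000497). Ppp1r3c, a glycogen-targeting subunit of protein phosphatase 1, declined part of the way, from 29.4–45.3 RPM (median 32.1) to 9.61–33.5 RPM (median 18.6, log2FC -0.78 ± 0.18, adjusted p = 0.00185), and was still 2.11 ± 0.19 above Rest on the log2 scale. Among held genes, those with the largest rise during EPS were Gm48565, the histone gene H2ac8, Pip5kl1 and the pseudogene Gm19178. H2ac8 was at 5.92–29.9 RPM (median 15) at EPS 0h and at 5.82–33.3 RPM (median 15.5) at EPS 3h (log2FC 0.04 ± 0.46), and H2A genes are near-identical copies between which reads may be split. Pip5kl1, a regulator of phosphatidylinositol phosphate kinases, had risen by 5.07 ± 0.37 and changed by 0.41 ± 0.25 afterwards (adjusted p = 0.313), while Gm48565 and Gm19178 gave 0.33 ± 0.41 and 0.66 ± 0.40, neither past the test, although Gm19178 passed with the replicate block (adjusted p = 0.0394). Uncx, Tnn, Ubtfl1 and Gm10747, given above, had the largest further rises.

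Among genes lowered by EPS, Nell2, a secreted glycoprotein best known from neurons, overshot its Rest level. It was at 1.12–4.47 RPM (median 2.73) at Rest, 0.747–1.51 RPM (median 1.08) at EPS 0h and 7.31–18.1 RPM (median 13.7) at EPS 3h (log2FC 3.60 ± 0.33, adjusted p = 3.94e-10), and all EPS 3h libraries were above all Rest libraries. Psrc1, a microtubule-associated protein, went from 2.91–5.14 RPM (median 3.84) to 5.42–17.6 RPM (median 13, log2FC 1.64 ± 0.21), and the glutathione transferase gene Gsta5 (log2FC 1.37 ± 0.35) and the transcript Gm37795 (log2FC 2.22 ± 0.34) also came up, with overlapping ranges. The largest EPS falls that held were those of the detoxifying enzymes Aldh3a1 and Nqo1, the chemokine Cxcl5 and the secreted BMP inhibitor Tsku. Aldh3a1 was at 93.5–128 RPM (median 116) at Rest, 15.1–26.6 RPM (median 21.5) at EPS 0h and 15–50.2 RPM (median 24.4) at EPS 3h, and Nqo1 at 37.3–48.9 (median 43.1), 6.46–10.9 (median 7.82) and 7.01–15.7 RPM (median 9.09). Neither passed the test between EPS 0h and EPS 3h (log2FC 0.32 ± 0.23 and 0.35 ± 0.18), nor did Cxcl5 (-0.98 ± 0.53) or Tsku (-0.37 ± 0.33). Irf1, a transcription factor of the interferon response, fell at both steps, from 54.7–77.7 RPM (median 63.4) to 23.9–29.6 RPM (median 26.6) and then 8.88–13.8 RPM (median 11.6, log2FC -1.22 ± 0.14, adjusted p = 8.46e-08), with no overlap between any of the 3 groups. Ap5s1, Depp1 and Mmp11 were the other genes with the largest further falls.

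Genes that had not passed an FDR of 0.05 at EPS 0h but moved by more than 1 on the log2 scale during recovery (FDR under 0.01) numbered 156 upwards and 16 downwards, or 26 downwards without EPS 3h replicate 2. The 156 newly higher genes had a median log2FC of 1.40, and in control myotubes 145 of them were also higher at an FDR under 0.05. For genes that passed the abundance filter only through the EPS 3h libraries of both LNAs, that agreement was set by the filter. Tspear, Ppp2r2c and Slco2a1 led them, followed by the olfactory receptor gene Olfr56 (0.169–0.856 RPM to 2.35–7.76 RPM, log2FC 3.51 ± 0.39). The 16 newly lower genes were led by the lncRNA Gm13372 (log2FC -1.43 ± 0.32), Trib3, Xrcc3 and the lysoplasmalogenase gene Tmem86a (10.3–30.1 RPM to 3.29–12.4 RPM, log2FC -1.27 ± 0.33). lncRNAs were 17.3% of the newly higher class and 5.89% of all genes tested. The share was 31.2% of the newly lower class (5 of 16), 17.3% of raised genes that held and 18.2% of those that rose further. It was 2.5% of those that declined, and 12.5%, 9.8% and 13.5% of lowered genes that came up, fell further and held. A high share was therefore not particular to newly higher genes. The part of the abundance filter in these shares was not tested.

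Heat shock genes, already high at the end of stimulation, rose again during recovery. The 34 heat shock genes summed to 22800 to 28400 RPM in Rest libraries, 53100 to 61300 RPM at EPS 0h and 80500 to 113000 RPM at EPS 3h. Between EPS 0h and EPS 3h, 19 of 34 rose at an FDR under 0.05 (8.59% of all genes tested), none fell and 15 did not pass, with a median log2FC of 0.45 against -0.02 for all genes tested. Scaled by library size alone, 15 rose and 1 fell. Hspa1a and Hspa1b, the inducible HSP70 genes, led with Dnajb1, an HSP40 co-chaperone. Hspa1a was at 63.2–190.4 RPM (median 97.2) at Rest, 1156–1904 RPM (median 1641) at EPS 0h and 4784–6976 RPM (median 5920) at EPS 3h, so each group lay wholly above the one before. Its log2FC during recovery was 1.90 ± 0.25 (adjusted p = 5.33e-07). Hspa1b went from 4774–7685 RPM (median 6405) to 15430–21110 RPM (median 17740, log2FC 1.48 ± 0.14), and reads of the near-identical pair may be split between them. Dnajb1 went from 1821–3378 RPM (median 2493) to 4073–7699 RPM (median 5325, log2FC 1.11 ± 0.16), without overlap.

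Rises were found among cytosolic, mitochondrial and small heat shock proteins and among co-chaperones. The mitochondrial chaperonin pair Hspd1 (HSP60) and Hspe1 (HSP10) had log2FC of 0.93 ± 0.11 and 0.79 ± 0.23, the latter with an adjusted p of 0.0562 without EPS 3h replicate 2, with Hspd1 going from 2721–3340 RPM (median 3165) to 4931–7265 RPM (median 5356), and the mitochondrial HSP70 gene Hspa9 rose by 0.50 ± 0.10. Of the cytosolic HSP90 genes, Hsp90ab1 rose by 0.37 ± 0.08 without overlap, and its activator Ahsa1 by 0.77 ± 0.12. Hsph1 (HSP110) rose by 0.70 ± 0.14, the small heat shock protein gene Hspb1 by 0.70 ± 0.13 and the co-chaperone Bag3, which links HSP70 to autophagy in muscle, by 0.52 ± 0.10. Hsp90aa1 (0.53 ± 0.19, adjusted p = 0.0481), Dnajb4 (0.43 ± 0.15, adjusted p = 0.0465) and Cryab (0.48 ± 0.16, adjusted p = 0.0385) passed more narrowly, and each lost the call in 12 or 13 of 23 alternative analyses. Hspa5, the HSP70 of the endoplasmic reticulum counted with the unfolded protein response, had a log2FC of 0.15 ± 0.08 (adjusted p = 0.214), the constitutive Hspa8 one of 0.23 ± 0.10 (adjusted p = 0.12, and 0.0372 with the replicate block) and the factor gene Hsf1 one of 0.03 ± 0.07.

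The upstream sequence of 4 of these genes is shown because they carry the heat shock element searched here, TTCNNGAA or GAANNTTC on either strand, in the 250 bases before the start of the canonical transcript (GENCODE annotation, GRCm39). Capitals mark the matches, and sequences run 5′ to 3′ on the strand of the gene.
Hspa1a (chr17:35191133-35191382, minus strand): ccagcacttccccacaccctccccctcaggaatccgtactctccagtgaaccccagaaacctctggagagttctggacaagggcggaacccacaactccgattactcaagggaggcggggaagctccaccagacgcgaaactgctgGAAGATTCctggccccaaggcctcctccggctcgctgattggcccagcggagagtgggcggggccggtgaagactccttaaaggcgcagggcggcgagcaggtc
Hspa1b (chr17:35178215-35178464, minus strand): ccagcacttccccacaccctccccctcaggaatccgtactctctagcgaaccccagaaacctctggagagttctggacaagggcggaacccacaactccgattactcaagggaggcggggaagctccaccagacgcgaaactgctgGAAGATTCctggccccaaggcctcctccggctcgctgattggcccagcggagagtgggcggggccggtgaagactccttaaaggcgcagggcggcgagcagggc
Hspd1 (chr1:55127184-55127433, minus strand): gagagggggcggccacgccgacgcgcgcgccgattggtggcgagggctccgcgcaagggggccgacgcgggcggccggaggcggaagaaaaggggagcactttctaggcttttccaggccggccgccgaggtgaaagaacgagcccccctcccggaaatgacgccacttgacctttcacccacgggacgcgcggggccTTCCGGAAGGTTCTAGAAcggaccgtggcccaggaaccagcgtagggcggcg
Hsph1 (chr5:149559807-149560056, minus strand): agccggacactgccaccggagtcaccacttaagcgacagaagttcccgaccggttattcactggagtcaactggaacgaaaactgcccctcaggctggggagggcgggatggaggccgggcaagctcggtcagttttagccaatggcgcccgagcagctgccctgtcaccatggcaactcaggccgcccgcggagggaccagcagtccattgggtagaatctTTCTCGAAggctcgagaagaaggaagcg
The windows of Hspa1a and Hspa1b differed at 3 of 250 bases. Hspd1 held 3 overlapping or adjoining matches, between 34 and 52 bases from the start. Over the list, 10 of 34 windows held a match (29.4%), against 1524 of 13945 windows of all genes tested (10.9%), 17.9% of the declined class (7 of 39) and 14.3% of the newly higher class (22 of 154). A match is a run of letters and not a bound site.

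**Figure D3:**
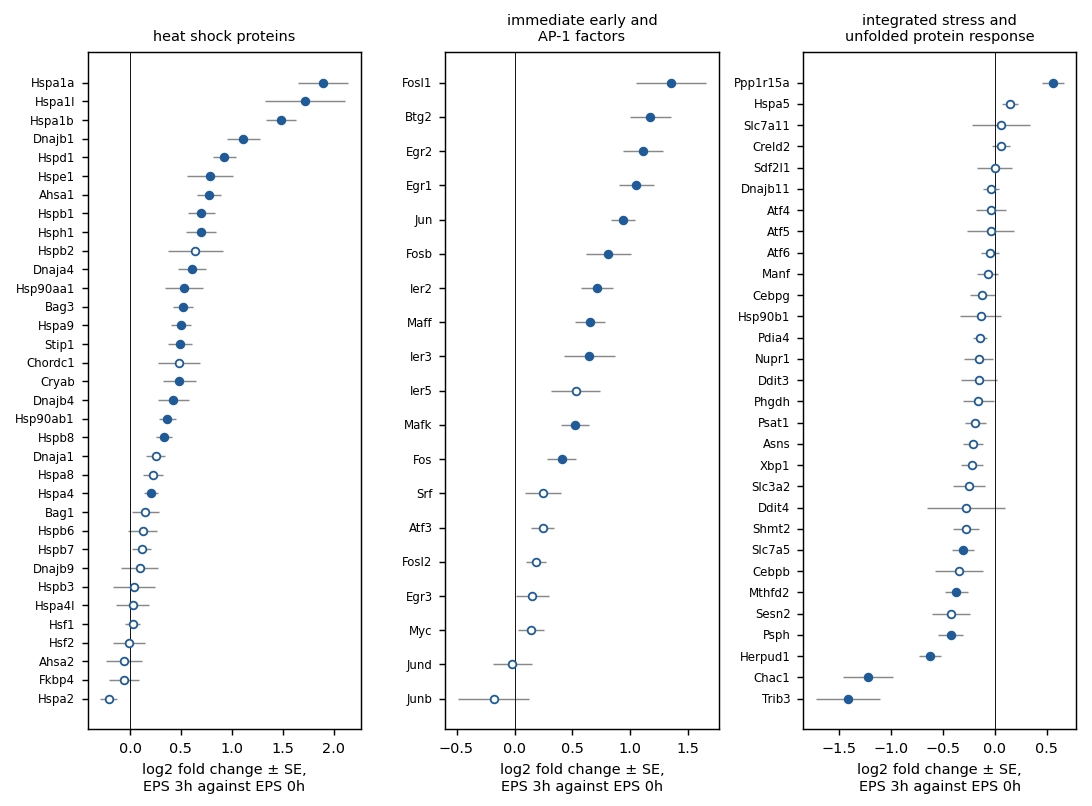
Log2FC of EPS 3h against EPS 0h in Tug1 KD myotubes for the members of 3 gene lists, with bars of 1 SE. Filled points passed an FDR of 0.05. Heat shock and immediate early genes lie mostly to the right of 0, with 19 of 34 and 11 of 19 past the test, and Trib3 and Chac1 lie furthest to the left among stress response genes.

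Many immediate early genes were higher at EPS 3h than when stimulation ended. Of 19 tested, 11 rose and none fell (8.59% and 7.13% of all genes tested), and the median log2FC was 0.53. At EPS 0h against Rest the median log2FC of the list had been -0.065. By an FDR under 0.01 and a log2FC beyond 1, EPS had raised 1 of the 19 and lowered 3 (8.15% and 2.5% of all genes tested). Egr1, a zinc finger factor, had not passed the test at EPS 0h (log2FC 0.27 ± 0.15) and went from 163–244 RPM (median 184) to 323–505 RPM (median 391, log2FC 1.05 ± 0.15, adjusted p = 2.81e-06), without overlap. Egr2 went from 25.5–39.9 RPM (median 33.7) to 50.6–98.2 RPM (median 71.1, log2FC 1.11 ± 0.17) and Jun from 492–653 RPM (median 600.1) to 952–1350 RPM (median 1095, log2FC 0.94 ± 0.10), both also without overlap. Of the other AP-1 members, Fosl1 rose by 1.35 ± 0.30, Fosb by 0.81 ± 0.19 and Fos by 0.41 ± 0.13. The call of Fos was lost in 6 of 23 alternatives, library-size scaling among them, and when EPS 0h replicate 4, EPS 3h replicate 2 or EPS 3h replicate 3 was left out (adjusted p between 0.0516 and 0.0602). Maff, a small MAF factor, went from 70.4–100.4 RPM (median 87.4) to 97.2–162 RPM (median 138, log2FC 0.65 ± 0.13, adjusted p = 0.00027). Junb, which had changed by -1.93 ± 0.32 during EPS, was at 61.4–179.8 RPM (median 115, log2FC -0.18 ± 0.31). Atf3, a stress-induced repressor, was raised at EPS 0h and held by the rule (log2FC 0.24 ± 0.10, adjusted p = 0.0949), although its range moved from 369–423 RPM (median 397) to 424–497 RPM (median 489) without overlap.

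Btg2, an antiproliferative cofactor induced by growth signals and p53, traced a fall and a return. It was at 53.5–73.9 RPM (median 65.8) at Rest, 22.2–31.8 RPM (median 26.8) at EPS 0h and 35–80.3 RPM (median 62.6) at EPS 3h, where all 6 libraries were above all 6 at EPS 0h (log2FC 1.17 ± 0.17, adjusted p = 5.18e-06). Its upstream window is shown for its full cyclic AMP response element (TGACGTCA, in capitals), the site bound by CREB and ATF factors.
Btg2 (chr1:134006859-134007108, minus strand): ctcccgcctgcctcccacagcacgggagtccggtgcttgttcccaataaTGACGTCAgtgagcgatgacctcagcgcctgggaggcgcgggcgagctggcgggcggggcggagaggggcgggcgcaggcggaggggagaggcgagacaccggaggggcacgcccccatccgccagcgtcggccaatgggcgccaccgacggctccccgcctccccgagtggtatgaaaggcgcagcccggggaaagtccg
The full site was found in 4 of 19 windows of the list (21.1%) and in 2.01% of all windows, and the half-site TGACG, which the full site contains, in 12 of 19 (63.2%) and 22.8%. An AP-1 site (TGAGTCA) was found in none of the 19 windows and in 3.44% of all, and a CArG box, the site of serum response factor, in 3 of 19 (15.8%) and 1.2% of all.

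The NR4A receptors are orphan nuclear receptors that exercise induces in muscle, and none passed the test during recovery. Nr4a3 was at 1.35–2.73 RPM (median 2.23) at Rest, 7.45–16.7 RPM (median 12.2) at EPS 0h and 7.99–18.6 RPM (median 11.1) at EPS 3h. Its log2FC during recovery was 0.04 ± 0.21, with a 95% interval of -0.39 to 0.47. Nr4a1 gave 0.31 ± 0.15 (adjusted p = 0.173, and 0.0373 with the replicate block) and Nr4a2 -0.21 ± 0.20 (adjusted p = 0.571), so 0 of 3 passed the test in either direction. Vgll4, a TEAD cofactor, and Pparg, a nuclear receptor of lipid metabolism, were held by the same rule, with log2FC of -0.22 ± 0.09 and 0.26 ± 0.12, and both passed with the replicate block (adjusted p = 0.0374 and 0.0318).

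Several genes of the integrated stress response fell. Of 30 genes of the integrated stress and unfolded protein response, 6 fell (7.13% of all genes tested), 1 rose and 23 did not pass, with a median log2FC of -0.16. With the replicate block 10 fell, and scaled by library size alone 11 fell. Trib3, a pseudokinase that restrains ATF4 signalling, went from 60–158 RPM (median 88.1) to 22.3–56.3 RPM (median 40.2, log2FC -1.41 ± 0.31, adjusted p = 0.00104), and at EPS 3h its range reached below that of Rest (45.6–91.9 RPM). Chac1, which degrades glutathione, went from 32.7–63.8 RPM (median 42.3) at Rest to 127–238 RPM (median 156) at EPS 0h and 49.7–107 RPM (median 73.1) at EPS 3h (log2FC -1.22 ± 0.24, adjusted p = 0.000271), and stayed above Rest (log2FC 0.68 ± 0.24). Herpud1, of endoplasmic reticulum degradation, fell by 0.62 on the log2 scale, from 288–402 RPM (median 351) to 196–253 RPM (median 232), which overlapped Rest (187–236 RPM). Ppp1r15a, the subunit that directs dephosphorylation of eIF2alpha, was the member that rose, from 195–270.2 RPM (median 227) to 241–433 RPM (median 343, log2FC 0.56 ± 0.11). The factor genes Atf4 (log2FC -0.04 ± 0.14) and Ddit3 (-0.15 ± 0.17) did not pass. The upstream window of Chac1 is shown because it held an ATF4 site as searched, TGATGNAA on either strand, here on the opposite strand and in capitals.
Chac1 (chr2:119181439-119181688, plus strand): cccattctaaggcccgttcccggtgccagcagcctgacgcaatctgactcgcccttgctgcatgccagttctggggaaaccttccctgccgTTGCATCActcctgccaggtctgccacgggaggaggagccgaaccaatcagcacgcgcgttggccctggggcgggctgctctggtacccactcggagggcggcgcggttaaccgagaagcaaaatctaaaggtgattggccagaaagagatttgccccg
Such a match was found in 3 of 39 windows of the declined class (7.69%), 1 of 16 of the newly lower class (6.25%) and 2.23% of all windows.

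Regulators of signalling moved in both directions, and their counts stand beside 8.59% higher and 7.13% lower over all genes tested. Members of the IkB family of NF-kB regulators that EPS had lowered fell again. Nfkbia (IkB alpha) went from 25.9–33.4 RPM (median 29.9) to 13.3–19.6 RPM (median 16.1) after 69.1–97.6 RPM (median 76.8) at Rest (log2FC -0.85 ± 0.13, adjusted p = 8.13e-06). Nfkbie and Bcl3 fell by 0.78 and 0.74. The calls of Nfkbie and Bcl3 were lost in 3 and 5 of 23 alternatives, among them the fit without EPS 0h replicate 6 (adjusted p = 0.0571 and 0.0539). Nfkbid, another member of this family, rose instead, from 2.62–3.76 RPM (median 3.1) to 9.66–16.5 RPM (median 11, log2FC 1.90 ± 0.26), and 3 of the 11 genes of this list were lower and 1 higher. The BMP targets Id1, Id2 and Id3, inhibitors of basic helix-loop-helix factors, fell by 0.78, 0.55 and 0.89, Id3 from 27.4–66.1 RPM (median 39.3) to 17.8–25.6 RPM (median 21.8). The BMP antagonist Nog (noggin), raised during EPS by 0.82 ± 0.15, returned from 27.9–38.7 RPM (median 34) to 17.3–25.8 RPM (median 20.4, Rest 12.6–24.5 RPM), and the decoy receptor Bambi rose from 0.747–1.44 RPM (median 1.24) to 1.75–7.96 RPM (median 3.68, log2FC 1.82 ± 0.28), making 4 lower and 2 higher of 15 (6 and 4 with the replicate block). Rem1 and Rrad, small GTPases that restrain voltage-gated Ca2+ channels, fell by 1.06 and 0.51, 2 of 4 on their list. Of 10 MAP kinase phosphatases, 3 fell and 2 rose, with Dusp14 at -0.69 ± 0.10 and Dusp10 at 0.81 ± 0.16.

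Of 12 myogenic factors, 4 fell and none rose (7.13% and 8.59% of all genes tested), with Pax7, the satellite cell factor, going from 18.4–32.6 RPM (median 21.9) to 11.5–15.2 RPM (median 13.2, log2FC -0.85 ± 0.14) and Myod1 from 66–86.2 RPM (median 76.8) to 39.5–59.9 RPM (median 53.4, log2FC -0.55 ± 0.09), both without overlap, and with Myf5 as given above. Myog, the factor of terminal differentiation, gave -0.09 ± 0.11. Pax7, Myf5 and Id1 are also 3 of the 8 markers of undifferentiated and reserve cells, whose sum ranged from 418 to 456 RPM at EPS 0h and from 367 to 519 RPM at EPS 3h. Their part in the fall of the myogenic factors was not tested. None of 44 sarcomere genes passed in either direction (median log2FC 0.07, and 3 higher with the replicate block), nor any of 9 genes of the mitochondrial calcium uniporter. None passed among 10 genes of adhesion and the dystrophin complex, 25 of the cell cycle or 16 of collagens and matrix, where the replicate block gave 1 higher and 1 lower, 2 lower and 1 lower. Of 19 genes of excitation-contraction coupling 1 rose, Stim1, the store sensor of Ca2+ entry, from 58.4–77.3 RPM (median 64.8) to 79.2–122 RPM (median 105, log2FC 0.66 ± 0.14). The ubiquitin ligase gene Fbxo32 (atrogin-1), in a list of 11 in which 2 fell (7.13% of all genes tested), went from 68.2–91.7 RPM (median 79.6) to 35–68.3 RPM (median 51.7, log2FC -0.66 ± 0.13, adjusted p = 0.000413).

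**Figure D4:**
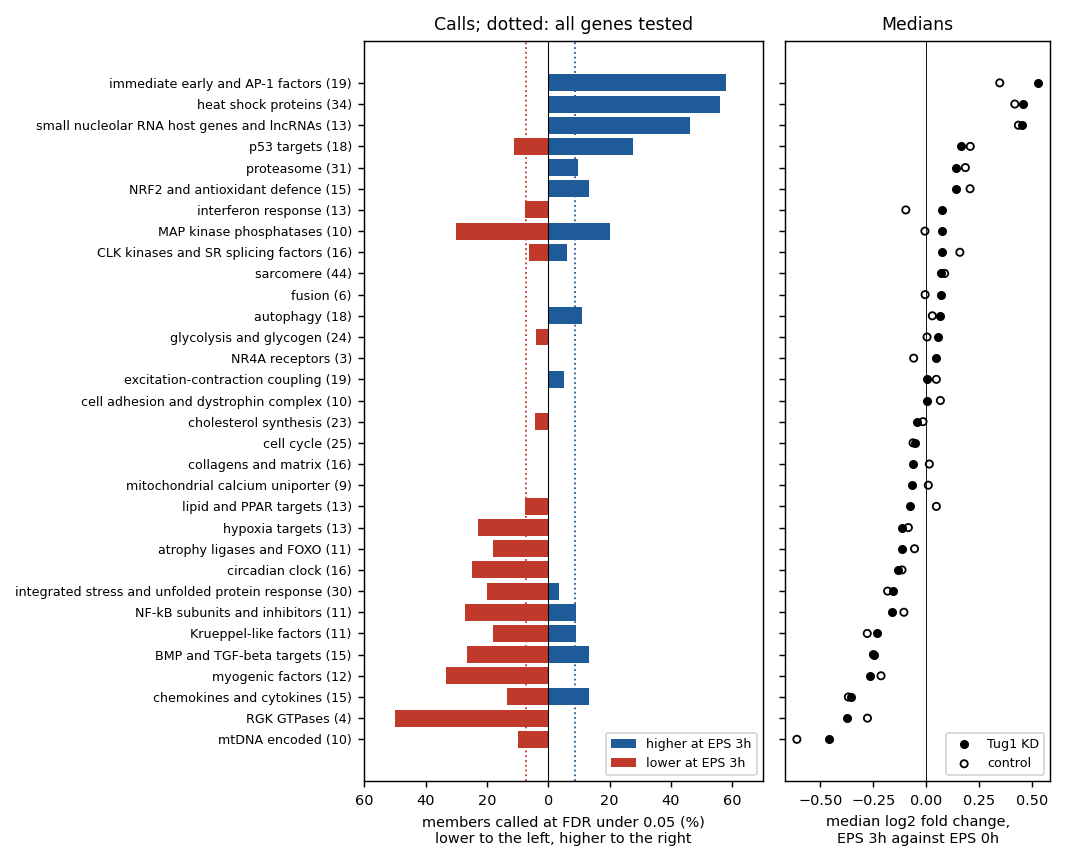
Share of each list's tested members (number in brackets) called higher or lower at an FDR under 0.05 between EPS 0h and EPS 3h in Tug1 KD myotubes, on the left, and their median log2FC in Tug1 KD (filled) and control (open) myotubes, on the right. Dotted lines are the shares over all genes tested, 8.59% higher and 7.13% lower. Immediate early genes (11 of 19 higher) and heat shock genes (19 of 34) stand at the top, and some genes belong to 2 lists.

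The remaining lists are read beside the same shares, 8.59% higher and 7.13% lower. Of 13 host genes of small nucleolar RNAs and other lncRNAs 6 rose and none fell, among them Snhg15 (22–28.6 RPM to 26.4–76.3 RPM, log2FC 1.01 ± 0.17), Snhg4 (1.28 ± 0.26), Snhg8 (0.86 ± 0.20) and Snhg6 (0.82 ± 0.19). Of 16 clock genes 4 fell, with the repressor gene Bhlhe40 going from 220.5–246 RPM (median 226) to 91.8–168 RPM (median 139, log2FC -0.75 ± 0.15). Of 18 p53 targets 5 rose and 2 fell (8 and 4 with the replicate block), Plk2 and Zmat3 by 0.58 ± 0.16 and 0.69 ± 0.17 and Gadd45b by -0.51 ± 0.12. Among 15 antioxidant genes the thioredoxin reductase gene Txnrd1 rose by 0.84 ± 0.17 and Prdx1 by 0.45 ± 0.12 (adjusted p = 0.0523 without EPS 3h replicate 3), while 13 did not pass. Klf6 was the 1 of 11 Krueppel-like factors that rose, from 396–616 RPM (median 582) to 728–1120 RPM (median 794, log2FC 0.67 ± 0.13), and 2 fell. Of 15 chemokines and cytokines 2 rose and 2 fell (2 and 7 with the replicate block), Il11 by 0.76 ± 0.17 and Vegfa by -0.39 ± 0.13, the latter lost in 8 of 23 alternatives. The splicing factor gene Tra2b rose by 0.57 ± 0.09, and 1 of the 16 genes of its list fell. The counts were 3 higher of 31 for the proteasome, 2 of 18 for autophagy, 3 lower of 13 for hypoxia targets (5 with the replicate block), and 1 lower of 24 for glycolysis and glycogen, 13 for lipid and PPAR targets, 13 for the interferon response and 23 for cholesterol synthesis (Sqle, log2FC -0.54 ± 0.13). None of 6 fusion genes passed. With the replicate block, 2 glycolysis and 2 lipid genes fell, 1 lipid and 1 clock gene rose, 1 heat shock gene and 1 gene of excitation-contraction coupling fell, and 2 splicing genes rose.

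Polrmt, the mitochondrial RNA polymerase, went from 31.7–42.5 RPM (median 35.7) to 24–30.4 RPM (median 26.6, log2FC -0.44 ± 0.09, adjusted p = 0.000442) and the mitochondrial DNA helicase gene Twnk from 32.2–44.3 RPM (median 37.7) to 24.4–30.7 RPM (median 29.8, log2FC -0.43 ± 0.09), both without overlap. Gabpa, a factor of nuclear-encoded respiratory genes, rose from 74.4–116 RPM (median 106) to 116–157 RPM (median 132, log2FC 0.41 ± 0.11, adjusted p = 0.00855). Nrf1 (log2FC -0.15 ± 0.08), Tfam (0.06 ± 0.09) and Mcu (-0.08 ± 0.13) did not pass. Of 10 mtDNA-encoded transcripts 1 passed, mt-Nd1 (log2FC -0.70 ± 0.25, adjusted p = 0.0499, lost in 10 of 23 alternatives), and the list median was -0.46 (2 passed with the replicate block). Mitochondrial transcripts took 1.08% to 2.36% of counts at EPS 0h and 0.796% to 1.99% at EPS 3h. Esrrb (0.66 ± 0.27), Esrrg (-0.08 ± 0.32), Dmd (0.54 ± 0.29), Vps13c (-0.11 ± 0.17) and Myf6 (-0.36 ± 0.33), which the study discusses, did not pass, except Dmd with the replicate block (adjusted p = 0.00672).

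Whether the 3 h change depended on the knockdown was tested as the interaction with the LNA, using control libraries that the Tug1 KD comparison does not share. No gene passed an FDR of 0.05 in either direction (0% of 13995 genes) in edgeR, and 137 genes (0.979%) had an unadjusted p under 0.05. DESeq2 and limma-voom also called 0 genes, with 151 and 121 at an unadjusted p under 0.05. The replicate block called 0 genes as well, with 306 at an unadjusted p under 0.05, and so did a block for replicates 1 to 3 against 4 to 6 with 271, replicates 1 to 3 alone with 310 and replicates 4 to 6 alone with 401. Without any interaction, a share of about 0.05 of the genes tested would be expected under that p. Every count given here was below that share, so these p-values ran high, and 0 calls do not show that no gene differed. Of the 531 large rises in Tug1 KD, 420 were also large rises in control (79.1% of 531 and 86.4% of 486), 501 were higher there at an FDR under 0.05, and all 531 had a positive log2FC there. Genes under 1 RPM in every Rest and EPS 0h library could pass the abundance filter only by reaching it in all 12 EPS 3h libraries, control included. For such genes a rise in control was a condition of entry, so their agreement was fixed in advance. Of the 45 large falls, 26 were shared with the 48 in control, and all 45 had a negative log2FC there. Across genes, which are not independent replicates, the 2 sets of log2FC correlated with r = 0.918. The interaction had a median SE of 0.206 on the log2 scale, which sets what could be seen for a single gene. Among list members chosen after their values were seen, Fos had a log2FC of 0.41 ± 0.13 in Tug1 KD and 0.05 ± 0.13 in control, Fosb 0.81 ± 0.19 and 0.23 ± 0.19, and Il11 0.76 ± 0.17 and 0.12 ± 0.17, with interaction log2FC of 0.36 ± 0.18, 0.58 ± 0.27 and 0.64 ± 0.24, none past the test.

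**Figure D5:**
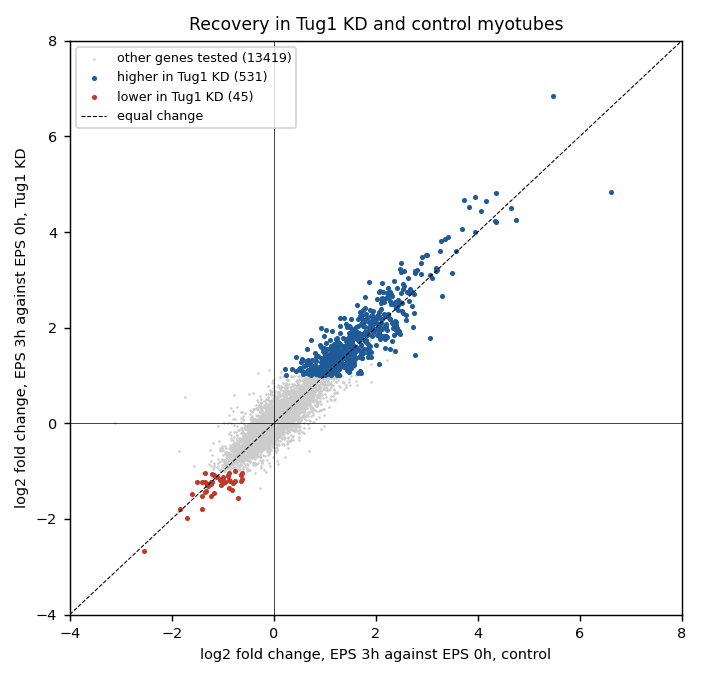
Log2FC of EPS 3h against EPS 0h in control (horizontal) and Tug1 KD (vertical) myotubes for 13995 genes. Blue and red points are the 531 large rises and 45 large falls in Tug1 KD, which lie on the same side of 0 in control, and the dashed line marks equal change.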

How the data were processed

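RNA of 36 C2C12 libraries was analysed, of which 12 make the comparison. The authors deposited counts per gene, 1 column per library. Per the labels and methods, reads were handled with FastQC 0.11.7, fastp 0.14.1 and STAR 2.5 on GRCm39, and the counting settings, strand included, are not given in the sources used here. From these counts, a gene was kept when 12 or more libraries held 1 RPM or more of it (13995 of 55416 genes). edgeR 4.0.16 (R 4.3.3) was fitted to all 36 libraries by group, with TMM factors and the robust quasi-likelihood test, and p-values were adjusted by Benjamini-Hochberg over all genes tested. Large changes had an FDR under 0.01 and a log2FC beyond 1, and lists and courses used an FDR under 0.05. An SE is the size of the log2FC divided by the square root of the F statistic, and intervals are at 95%.

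Samples were grouped by their labels, and every column matched 1 sample. Deviations of same-numbered libraries were correlated (r between 0.188 and 0.754 over 6 numbers), but only 2 of 6 correlated best with their own number. The rest correlated best with another number of the same set, 1 to 3 or 4 to 6. No label pairs the wells, so the block by replicate number is an assumed pairing that also takes up the difference between sets. The fit with this block is given where it changes a call or moves a count by over 1.5 times. Replicates 1 to 3 and 4 to 6 were told apart from the data, not from labels. Depth differed little between groups, and intervals on read ratios cover counting error only. Alternatives were DESeq2 1.42.0, limma-voom (limma 3.58.1), library-size and upper-quartile scaling, other filters, blocks, single sets, the 2 groups alone, a test against a log2FC of 1, and each library left out.

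Genes named were the 10 largest rises and 10 largest falls with at least 5 RPM and no overlap, the 4 largest of each course, list members, and genes the study names. The genes and lists were chosen with earlier results of these data known. Some genes of the study and 1 list were left unreported. Windows of 250 bases before canonical start sites (GENCODE M39, GRCm39) were searched on both strands, and 13945 of 13995 genes had one. The statistics were tested on simulated data.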

Additional observations from a re-analysis of the deposited data

Results flagged for a closer look

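In each group of 6 libraries, the highest or lowest value was compared with its neighbour by Dixon's ratio and its 95% critical value. Of 246 groups, 5 passed it, and chance alone passes about 1 in 20. Hspa5 at EPS 0h had a ratio of 0.813, with replicate 1 lowest at 511 RPM and the next library at 610 RPM. Rrad at EPS 0h had a ratio of 0.755, with replicate 3 lowest at 61 RPM and the next at 75.8 RPM. Myog at EPS 3h had a ratio of 0.674, with replicate 3 highest at 1060 RPM and the next at 851 RPM. Nfkbid at EPS 3h had a ratio of 0.646, with replicate 4 highest at 16.5 RPM and the next at 12.1 RPM. Tspear at EPS 0h had a ratio of 0.627, with replicate 4 highest at 0.156 RPM and the next at 0.0582 RPM.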

How the results depend on the processing

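Of 123 named genes, none of the 93 called changed direction in any of 23 alternatives, while 10 of the 30 not called changed sign in at least 1. Of the 93 called, 24 lost the call at least once and 10 did so with 1 library left out. Dnajb4 and Hsp90aa1 lost it in 13, Cryab in 12 and mt-Nd1 in 10. The interaction with the LNA gave 0 genes in every alternative in which it was fitted. Without a filter beyond 1 count there were 1316 genes higher and 84 lower, 90 declined, 1428 held, and 788 newly higher and 40 newly lower. With at least 10 counts in 6 libraries these were 1065, 80, 85, 1069, 453 and 37, with 639 rising further. Both filters admit more genes, 39727 and 17149 against 13995. With the replicate block 86 genes declined, and with a block for replicates 1 to 3 against 4 to 6, 65 did. Library-size scaling gave 25 newly lower genes. Replicates 1 to 3 alone gave 1119 held and 8 newly lower, and replicates 4 to 6 alone 245 that rose further, each with fewer libraries. Tested against a log2FC of 1, 150 genes were higher and 2 lower. For other changes the cause was not tested.

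Leaving out 1 library in turn gave 478 to 576 genes higher and 35 to 64 lower. Courses and newly changed genes without each library were added after seeing the data. Declined genes ranged from 27 (without EPS 0h replicate 1) to 65 (without EPS 3h replicate 2), held from 599 to 744, rising further from 372 to 432, newly higher from 131 to 172 and newly lower from 11 to 26. In the pairing by replicate number, 2 of 6 libraries correlated best with their own number. The blocked fit gave 571 genes higher and 59 lower, and the calls it changed for named genes and lists stand beside those results. Genes under about 1 RPM at EPS 0h rest on few reads, which limits the precision of their ratios.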
